A study of Mus musculus with 3 samples.

Results

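The regions described here are 3400 wide Notch2 peaks of the embryonic mouse kidney that were listed in 1 of 2 replicate samples and had no counterpart in the other. They were chosen by width and by lack of overlap. A peak of replicate 1 was taken if it was wider than 847 bp (end minus start) and shared no base pair with any peak of replicate 2. Replicate 1 held 28651 peaks after exact repeated rows had been dropped, replicate 2 held 12585, and 7159 of the replicate 1 peaks reached the width. The 3400 regions were 47.5% of these 7159 wide peaks (95% Wilson interval 46.3 to 48.7%). The other 3759 wide peaks overlapped a replicate 2 peak and serve as the comparison. The former are called unmatched and the latter matched wide peaks. Without regard to width, 67.0% of the replicate 1 peaks had no overlap with replicate 2. Because width and overlap made the choice, these shares describe the choice and are not a result.

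The study immunoprecipitated crosslinked chromatin of whole E16.5 kidney with an antibody against Notch2 and sequenced the bound fragments (ChIP-seq). It has 2 such samples, numbered 1 and 2, and an input sample of unselected kidney DNA, all of the same stage. No genotype, strain or treatment is named for any of them, and whole kidney mixes nephron, ureteric, stromal, vascular and blood cells. Per the labels nothing says that the replicates came from separate litters, so a difference between them may be technical. Each replicate came with a list of peak positions on the mm9 build and with no height, score or read number, so the depth behind a peak is unknown. The input was not analysed here. All values below compare regions of 1 list with another list. They have no p-value, because regions of 1 sample are not replicates, and every interval covers counting error only.

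Notch2 is a cell-surface receptor that binds ligands of the Jagged and Delta-like families on neighbouring cells. Ligand binding leads to cleavage of the receptor, and the released intracellular domain enters the nucleus. It does not bind DNA itself but joins the DNA-binding protein RBPJ and Mastermind coactivators at enhancers and promoters, where the complex turns on target genes. In the developing kidney Notch2 is known for its part in the formation of the proximal nephron. In ChIP-seq a peak is a stretch with an excess of sequenced fragments, and wide peaks can arise where several sites lie close together or where signal spreads over an active regulatory region.

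Most of the unmatched wide peaks lay close to the lower end of the width range. Their widths reached 4049 bp, with a median of 1050 bp and an interquartile range of 931 to 1299 bp, and 10% of them were wider than 1618 bp. The matched wide peaks reached 4694 bp, with a median of 1104 bp. All replicate 1 peaks together had a median of 637 bp. In total the unmatched wide peaks covered 3.98 Mb and the matched ones 4.73 Mb, of 21.8 Mb under all replicate 1 peaks. Just inside the width limit, 11 of the 15 peaks that were 1 bp wider than 847 bp were unmatched. Just outside it, 19 of the 26 peaks of 847 bp were unmatched.

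The unmatched share of the wide peaks became smaller with width. It was 55.8% of the 952 wide peaks of up to 899 bp (95% Wilson interval 52.6 to 58.9%) and 47.1% of the 2166 peaks of 1000 to 1249 bp (45.04 to 49.2%). Among the 915 peaks of 1500 to 1999 bp it was 42.2% (39.0 to 45.4%). Of the 128 peaks of 2500 bp or more, 37 were unmatched, a share of 28.9% (21.8 to 37.3%). Width and overlap both entered the choice, so these shares are a description.

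**Figure D1:**
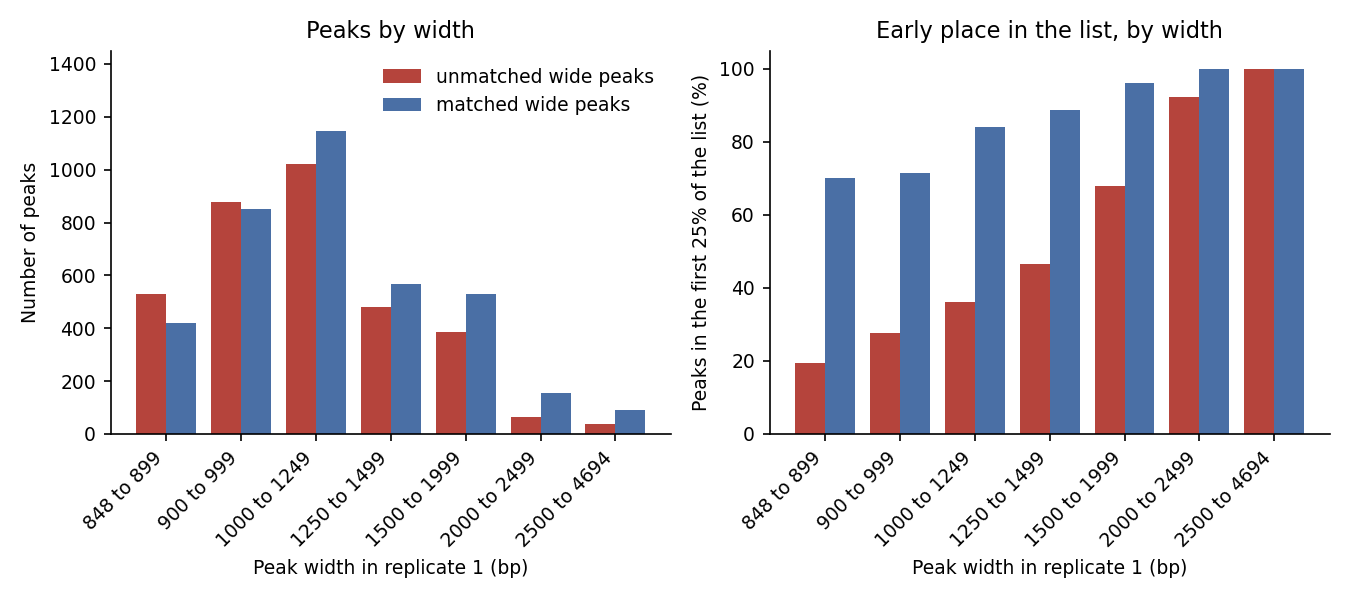
Left, number of unmatched and matched wide peaks (y axis) in 7 classes of width in bp (x axis). Right, the percentage of each group in the first 25% of the deposited replicate 1 list, in the same classes. Unmatched peaks outnumber matched ones only below 1000 bp, and in the first 6 classes a smaller part of them stands early in the list.

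The 10 widest unmatched regions lay on 7 chromosomes and measured 3192 to 4049 bp. The widest, on chromosome 2 from 26447887 to 26451935 (4049 bp), had its nearest replicate 2 peak 8.36 kb away and 5 replicate 2 peaks within 100 kb. The second, on chromosome 9 from 107883814 to 107887802 (3989 bp), had none within 100 kb, and the nearest was 238 kb away. These 2 regions show both settings in which wide unmatched peaks were found, beside replicate 2 peaks and far from any.

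Chromosome 15 held 3 of the 10. The first ran from 93540827 to 93544757 (3931 bp), with a replicate 2 peak 60.5 kb away. The next ran from 101931573 to 101935059 (3487 bp), and its nearest replicate 2 peak was 486 kb away. The last ran from 95657484 to 95660852 (3369 bp) with a distance of 22.5 kb. The distances on this chromosome thus spanned more than an order of magnitude for regions of similar width.

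Chromosome 19 held a region from 5846422 to 5850319 (3898 bp), 24.0 kb from a replicate 2 peak and with 14 other replicate 1 peaks within 100 kb, of which 3 were matched. On chromosome 1 a region from 193006006 to 193009315 (3310 bp) had 8 other replicate 1 peaks within 100 kb and no replicate 2 peak. On chromosome 8 a region from 123016015 to 123019292 (3278 bp) had 19 other replicate 1 peaks within 100 kb, of which 0 were matched, and 1 replicate 2 peak 41.9 kb away. Both of the last 2 regions stood among replicate 1 peaks that had no counterpart either. The remaining 2 were on chromosome 7 from 152126792 to 152130024 (3233 bp, 80.6 kb from a replicate 2 peak) and on chromosome 2 from 164261248 to 164264439 (3192 bp, 423 kb). Of the 10 widest, 4 had no replicate 2 peak within 100 kb.

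The groups also differed in the place of their peaks in the deposited list. Width was limited by the choice, so place and width are not ranked against each other. The sources used here do not describe the order of the list. It comes from the same sample as the widths, so it is given as a description. Across all replicate 1 peaks early places went with large widths (Spearman rho = -0.66 across 28651 peaks). Unmatched wide peaks had a median place of 8864 and stretched from place 191 to 26619, and matched wide peaks had a median place of 2818 and began at place 1. In the first 25% of the list stood 38.2% of the unmatched wide peaks (36.6 to 39.8%) and 83.1% of the matched ones (81.8 to 84.2%). The difference between unmatched and matched was -44.9 percentage points (95% Newcombe interval -46.9 to -42.8).

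The gap was also present among peaks of similar width. Among wide peaks of up to 899 bp, 19.4% of the unmatched and 70.1% of the matched peaks stood in the first 25%. Within 1500 to 1999 bp these shares were 67.9% and 96.0%, a difference of -28.2 percentage points (-33.2 to -23.3). From 2500 bp upwards all 37 unmatched and all 91 matched peaks stood in the first 25%. At these widths this measure could therefore not separate the groups, and finer differences in place were not compared.

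No wide peak among the first 100 places was unmatched (0 of 99, which allows a share of up to 3.03%, taken as 3 counts of 99). From place 101 to 500 there were 11 of 370 (2.97%, 95% Wilson interval 1.67 to 5.24%), and from 501 to 1000 there were 47 of 426 (11.03%, 8.40 to 14.4%). Unmatched peaks reached 51.0% of the wide peaks at places 4001 to 7162 and 89.0% at places 14326 to 21488. Narrower peaks of the same places were unmatched in 41.4% and 80.3%. At places 1001 to 2000 the shares were close, at 15.98% for wide and 16.06% for narrower peaks, and so were those of the last places from 21489, at 90.2% and 90.1%. Narrower peaks were far more numerous late in the list, with 6480 at places 14326 to 21488 against 683 wide ones.

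**Figure D2:**
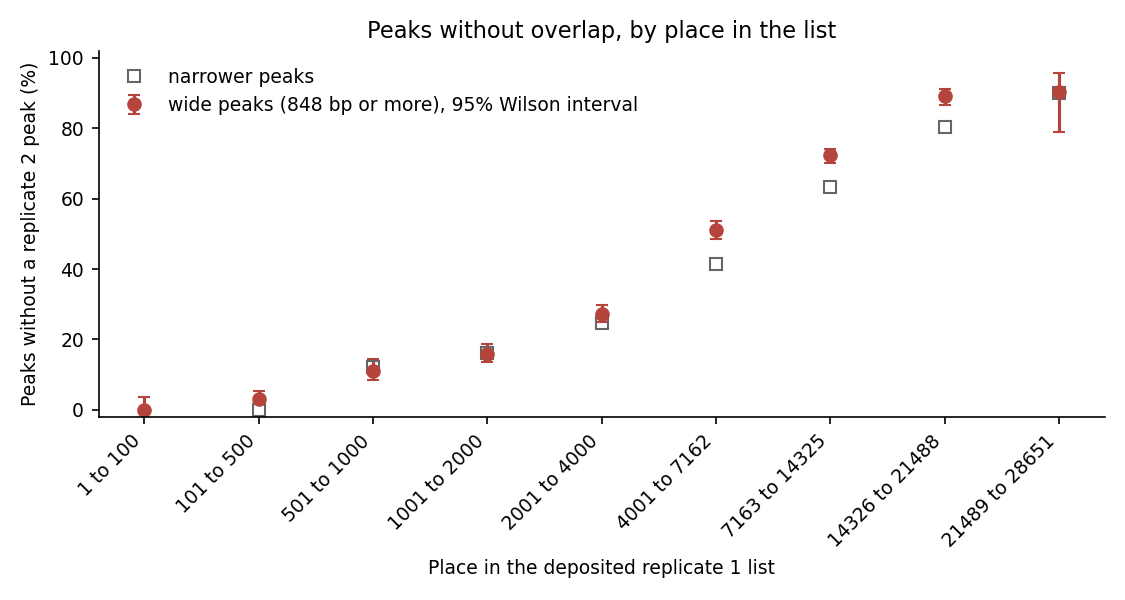
Percentage of replicate 1 peaks without a replicate 2 peak (y axis) by place in the deposited list (x axis), for wide peaks (filled points with 95% Wilson intervals) and narrower peaks (open squares, left out at places 1 to 100, which hold 1 such peak). Both climb from near 0 to 90.2% for wide peaks at the end of the list.

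The 10 unmatched wide peaks that stood earliest held places 191 to 457 and measured 1074 to 3989 bp. The first of all, on chromosome 4 from 116163235 to 116164995 (1761 bp, place 191), was isolated in both lists. No other replicate 1 peak and no replicate 2 peak lay within 100 kb of it, and the nearest ones were 105 and 338 kb away. The region on chromosome 5 from 137789440 to 137791078 (1639 bp, place 433) lay 596 kb from a replicate 2 peak. With the region on chromosome 9 named above (place 457), 3 of these 10 early regions had no replicate 2 peak within 100 kb.

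The other early regions had replicate 2 peaks nearby. On chromosome 8 a region from 123062207 to 123064297 (2091 bp, place 441) lay 512 bp from a replicate 2 peak, the only 1 within 100 kb. Of the 14 other replicate 1 peaks within 100 kb of it, 0 were matched. On the same chromosome a region from 129118127 to 129120759 (2633 bp, place 350) was 9.60 kb from its nearest replicate 2 peak and had 6 within 100 kb. On chromosome 18 a region from 55266078 to 55267353 (1276 bp, place 338) was 9.96 kb away, with 9 replicate 2 peaks within 100 kb. Replicate 2 thus had at least 1 peak near each of these regions, but none at the region itself.

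The remaining early regions lay somewhat farther away, at 11.4 to 24.0 kb. They were on chromosome 6 from 37997939 to 37999828 (14.3 kb from replicate 2), chromosome 5 from 103157478 to 103159100 (17.7 kb) and chromosome 12 from 112699357 to 112700430 (11.4 kb). The region on chromosome 19 named above (place 389) completes the 10. The 10 early regions had a median distance of 16.01 kb, and the 10 widest had one of 70.6 kb. The 2 sets share 2 regions and were each chosen by rank, so these medians only describe them.

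Near misses were rare. Of the 3400 unmatched wide peaks, 15 (0.441%) lay within 500 bp of a replicate 2 peak and 64 (1.88%, 95% Wilson interval 1.48 to 2.40%) within 1 kb. Within 10 kb there were 680 (20%, 18.7 to 21.4%), and within 100 kb 2175 (64.0%, 62.3 to 65.6%). The median distance was 52.7 kb, and it ran from 13 bp to 3.73 Mb. To the nearest replicate 2 peak that did not overlap, the median was 18.4 kb for matched wide peaks and 42.3 kb for all replicate 1 peaks. Such a peak lay within 1 kb of 3.35%, within 10 kb of 37.6% and within 100 kb of 83.7% of the matched wide peaks. Among unmatched wide peaks, distance to replicate 2 was unrelated in rank to place in the list (Spearman rho = 0.02 across 3400 peaks) and to width (rho = -0.01). The relation to place was not even, since the median distance was 47.0 kb in the earliest of 4 classes of 850 unmatched peaks by place, 56.7 kb in the second, 60.5 kb in the third and 50.5 kb in the last. The shares within 10 kb were 23.4%, 18%, 16.8% and 21.8%.

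The 5 nearest regions lay 13 to 201 bp from a replicate 2 peak. The nearest was on chromosome 10 from 6785833 to 6786738 (906 bp, 13 bp away). Next came chromosome 6 from 52178858 to 52180273 (1416 bp, 114 bp away), in a crowded stretch with 29 other replicate 1 and 16 replicate 2 peaks within 100 kb. The third ran from 13896081 to 13896961 on chromosome 17 (122 bp away). Chromosome 11 held the fourth, from 96174074 to 96175886 (178 bp away), and chromosome 14 the fifth, from 120698748 to 120699682 (201 bp away). On the other side of the overlap limit, the smallest overlaps of matched wide peaks were 27 bp on chromosome 3 (from 62085617 to 62087518) and 60 bp on chromosome 10 (from 120679506 to 120680921). Such marginal overlaps were few, since 90% of the matched wide peaks shared 500 bp or more with their counterpart, the replicate 2 peak of largest overlap.

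Where a replicate 2 peak did lie within 10 kb of an unmatched wide peak, it usually had a partner of its own. Of these 680 nearest replicate 2 peaks, counted once for each unmatched peak, 79.0% overlapped another replicate 1 peak (95% Wilson interval 75.7 to 81.9%). Over all 12585 replicate 2 peaks the share was 75.5%, so this value is near the background. For the 64 within 1 kb it was 57.8% (45.6 to 69.1%). Their median width was 562 bp. No other replicate 1 peak lay closer than 500 bp to an unmatched wide peak, which limits where a partner can lie at that distance. The share is thus not directly comparable with the 75.5%, and the reason for the lower value was not tested.

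Unmatched wide peaks lay in surroundings that held fewer replicate 2 peaks. With any overlapping replicate 2 peak left out of the count, an unmatched wide peak had 1.89 ± 2.42 replicate 2 peaks within 100 kb (mean ± SD over 3400 peaks) and a matched one 3.28 ± 3.10 (3759 peaks). All replicate 1 peaks had 2.11 ± 2.51. No replicate 2 peak lay within 100 kb of 36.0% of the unmatched (34.4 to 37.7%), 16.3% of the matched (15.1 to 17.5%) and 31.1% of all replicate 1 peaks. The difference between unmatched and matched was 19.7 percentage points (95% Newcombe interval 17.7 to 21.7). The value of all replicate 1 peaks lay nearer to that of the unmatched wide peaks. All replicate 1 peaks include both groups, and 67.0% of them had no overlap with replicate 2. This nearness therefore does not tell which group is the unusual one. The surroundings of neighbouring peaks overlap, so the intervals are too narrow.

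**Figure D3:**
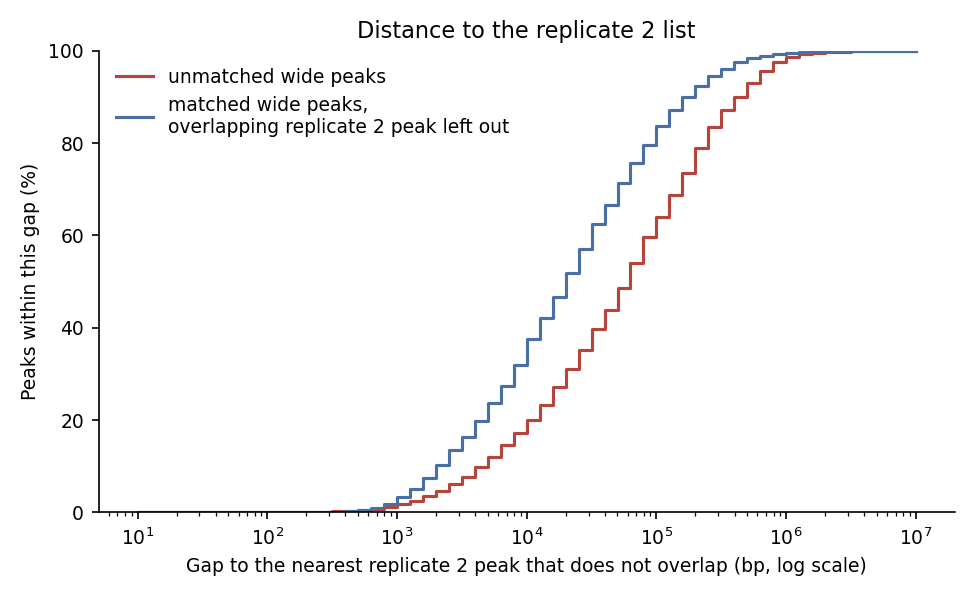
Cumulative percentage of unmatched and matched wide peaks (y axis) by the gap in bp, on a log scale, to the nearest replicate 2 peak that does not overlap them (x axis). The curve of the unmatched peaks lies to the right, with medians of 52.7 kb against 18.4 kb.

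The numbers of replicate 1 peaks around the groups differed less. Within 100 kb there were 5.29 ± 4.16 other replicate 1 peaks around an unmatched wide peak, 5.78 ± 4.24 around a matched one and 4.63 ± 3.79 around any replicate 1 peak (mean ± SD over peaks). A shorter distance, used for joining peaks and given under processing, lies between 10 and 25 kb. Another replicate 1 peak lay within this joining distance of 51.5% of the unmatched (49.8 to 53.2%), 59.1% of the matched (57.5 to 60.6%) and 47.6% of all replicate 1 peaks. The difference between unmatched and matched was -7.53 percentage points (95% Newcombe interval -9.82 to -5.22). Unmatched wide peaks were thus slightly more crowded in their own list than peaks in general. The gap to the matched ones was not present at every place in the list. With the unmatched peaks divided into 4 classes of 850 by place, and matched peaks taken from the same places, the shares within the joining distance were 60.2% and 60.3% in the first class and 50.5% and 51.6% in the second. In the third they were 47.6% and 57.2%, and in the last 47.8% and 57.7%. The mean number of other replicate 1 peaks within 100 kb was higher around unmatched peaks in 3 of the 4 classes, for example 6.14 against 5.91 in the first.

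The neighbours of unmatched wide peaks were themselves less often matched. Of the other replicate 1 peaks within 100 kb, 28.4% overlapped replicate 2 around unmatched wide peaks and 44.7% around matched ones, against 35.3% around all replicate 1 peaks. These shares count pairs of peaks. A neighbour enters again for each peak it lies near and can enter both groups, so crowded stretches weigh more. The single nearest other replicate 1 peak was matched in 27.3% of the unmatched (25.8 to 28.8%) and 46.4% of the matched wide peaks (44.8 to 48.0%). For the nearest other wide peak the shares were 43.8% and 62.8%, a difference of -19.1 percentage points (-21.3 to -16.8). The choice of a peak did not look at its neighbours, although wide neighbours were sorted by the same rule. The shares are still not independent of the choice. A replicate 2 peak can overlap both a matched wide peak and its neighbour, which cannot occur beside an unmatched one. How much of the difference this gives was not tested.

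The share of matched neighbours was lower around unmatched peaks in each of the 4 classes by place. There 27.0 to 29.3% of the neighbours of unmatched peaks, again counted in pairs, were matched, as were 42.1 to 45.2% of those of matched wide peaks at the same places. The number of replicate 2 peaks within 100 kb was 2.18 around the earliest unmatched class and 3.34 around matched peaks of those places. In the last class, from place 13146, it was 1.86 and 2.91, the latter over 111 matched peaks. Earlier unmatched peaks were wider (median 1246 bp in the first class and 946 bp in the last) and more often had a replicate 1 peak within the joining distance (60.2% and 47.8%).

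**Figure D4:**
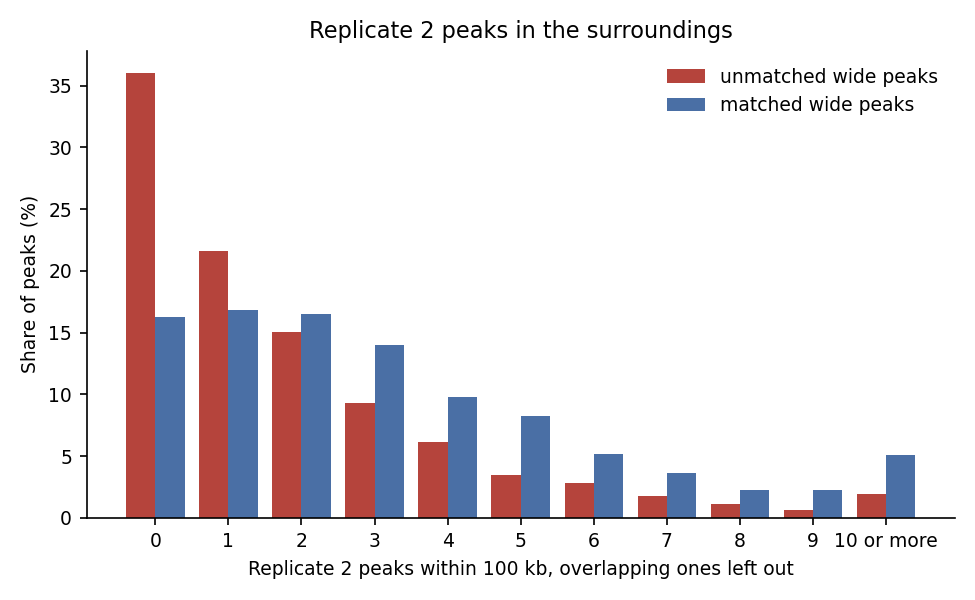
Share of unmatched and matched wide peaks in percent (y axis) by the number of replicate 2 peaks within 100 kb, overlapping ones left out (x axis). The unmatched peaks have their highest bar at 0 peaks (36.0%), and the matched ones exceed them at 2 and at every higher number.

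Unmatched wide peaks were spread over all 19 autosomes and the X chromosome, with uneven shares. On chromosome 11, 282 of 467 wide peaks were unmatched (60.4%, 95% Wilson interval 55.9 to 64.7%), the highest share of any chromosome. Chromosomes 17, 19 and 4 followed with 56.4%, 56.0% and 55.5%, and their intervals overlapped that of chromosome 11. The lowest shares were 38.8% on chromosome 16 (101 of 260, 33.1 to 44.9%), 39.5% on chromosome 3 and 39.5% on chromosome 10, which did not differ beyond counting error. Chromosome 11 exceeded chromosome 16 by 21.5 percentage points (95% Newcombe interval 14.0 to 28.7). Both were picked as the extremes, which widens such a difference. It was 24.1 points among wide peaks of the first 25% of the list and 16.8 among the rest.

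The X chromosome held few wide peaks of either kind. There were 29 unmatched and 37 matched ones, or 43.9% unmatched (32.6 to 55.9%). The density of unmatched wide peaks on the X chromosome was 0.129 times that of the autosomes (1.41 per Mb), and that of matched ones was 0.149 times (1.55 per Mb). The share on the X chromosome did not differ from the overall 47.5% beyond counting error.

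Per Mb, unmatched wide peaks were most frequent on chromosomes 11 (2.38) and 19 (2.10) and least on chromosomes 1 (0.985) and 14 (1.06), among autosomes. Matched wide peaks did not follow them (Spearman rho = 0.10, Pearson r = 0.07 over 19 autosomes). Chromosome 11 had 1.56 matched wide peaks per Mb, about the autosomal mean. Over the same 19 autosomes the density of unmatched wide peaks rose with the number of protein-coding genes per Mb (rho = 0.70, r = 0.75), and that of matched ones did not (rho = -0.22, r = -0.23). These are descriptions over 19 points that share chromosome length in both densities. Gene numbers were taken per chromosome from RefSeq for GRCm38.

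Narrower replicate 1 peaks were compared over the same stretches. The choice of the wide peaks did not use them, but both shares are set against the same replicate 2 list and depend on how many peaks it has nearby. By chromosome, the share of narrower peaks without overlap rose with that of wide peaks (rho = 0.90 over 19 autosomes) and was highest on chromosome 11 as well, at 81.1%. By 5 Mb windows the relation was also present, with rho = 0.69 and r = 0.68 over 326 windows that held at least 10 wide and 10 narrower peaks. In 27 of these windows 75% or more of the wide peaks were unmatched, and there 88.9% of the narrower peaks were unmatched too. In 42 windows 25% or fewer were, and there 59.4% of the narrower peaks were unmatched. Over all 326 windows it was 74.3%.

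**Figure D5:**
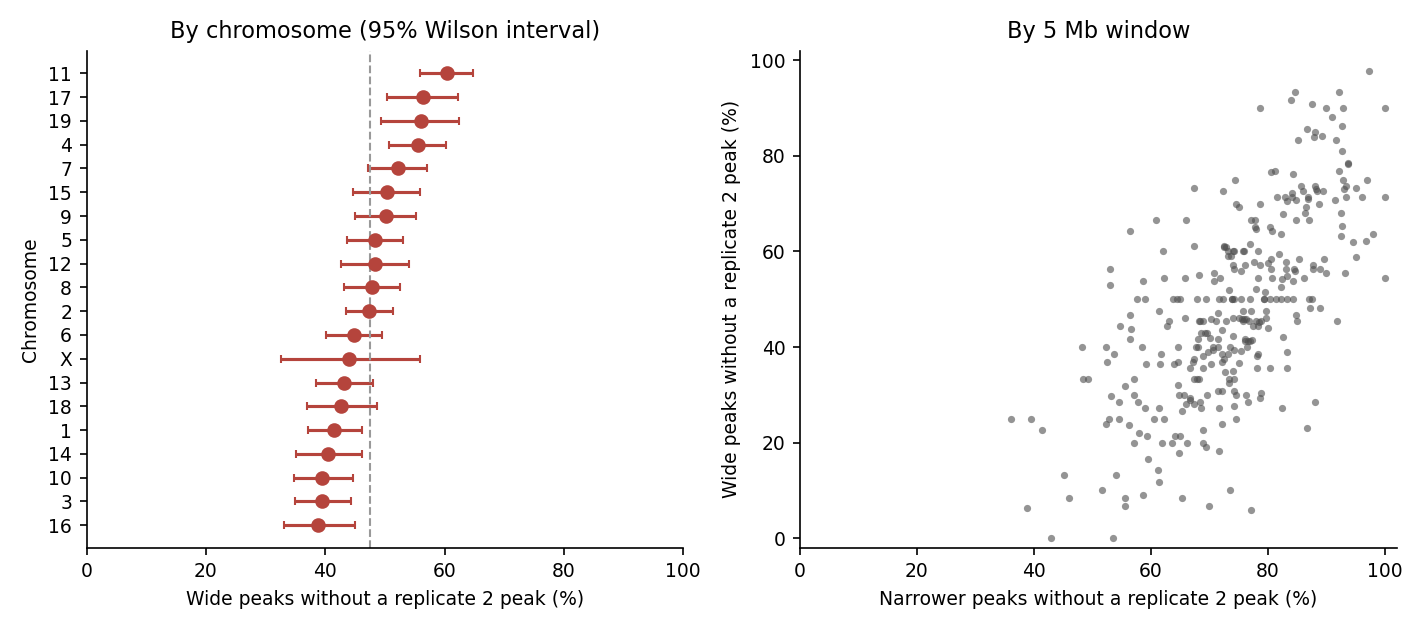
Left, percentage of wide replicate 1 peaks that were unmatched (x axis) on each chromosome (y axis), with 95% Wilson intervals and a dashed line at the overall 47.5%. Right, each point is a 5 Mb window, with the unmatched percentage of narrower peaks (x axis) and of wide peaks (y axis), and the points climb together.

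A stretch near the end of chromosome 11 stood out among the windows. From 115 to 120 Mb, 43 of 44 wide peaks were unmatched (97.7%, 95% Wilson interval 88.2 to 99.6%), as were 72 of 74 narrower ones. Replicate 1 listed 118 peaks there and replicate 2 listed 4. This was the window with most unmatched wide peaks and also the one with the highest share. Next in number was chromosome 9 from 60 to 65 Mb, with 31 of 55 wide peaks unmatched and 46 replicate 2 peaks. Chromosome 2 from 30 to 35 Mb had 28 of 42. On chromosome 8, 28 of 45 were unmatched from 120 to 125 Mb and 27 of 38 from 125 to 130 Mb. Chromosome 4 from 150 to 155 Mb had 26 of 39. In these 5 windows replicate 2 listed 24 to 46 peaks, and the unmatched shares of 56.4 to 71.1% were less extreme than at the end of chromosome 11.

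Further windows had higher shares on smaller numbers. On chromosome 2, 26 of 31 wide peaks were unmatched from 25 to 30 Mb and 14 of 15 from 35 to 40 Mb. On chromosome 19 they were 25 of 29 from 5 to 10 Mb. On chromosome 11 they were 11 of 12 from 30 to 35 Mb and 10 of 11 from 55 to 60 Mb. On chromosome 4, 14 of 15 were unmatched from 115 to 120 Mb, the window that also holds the earliest unmatched region. Replicate 2 listed 5 to 19 peaks in each of these 6 windows and replicate 1 listed 41 to 113.

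At the other extreme, some windows held wide peaks that nearly all had a counterpart. None of the 10 wide peaks on chromosome 4 from 70 to 75 Mb was unmatched (0 of 10, which allows up to 30%), and none of the 11 on chromosome 5 from 10 to 15 Mb (which allows up to 27.3%). In these 2 windows the lists were of nearly the same length, with 45 and 44 peaks on chromosome 4 and 39 and 38 on chromosome 5 in replicates 1 and 2. On chromosome 2 from 45 to 50 Mb, 1 of 16 wide peaks was unmatched, with 52 peaks in replicate 1 and 50 in replicate 2. Other low windows had more peaks in replicate 1. On chromosome 16, 1 of 17 was unmatched from 40 to 45 Mb, with 52 and 31 peaks in replicates 1 and 2, and 1 of 15 from 70 to 75 Mb, with 60 and 43. On chromosome 2 from 40 to 45 Mb it was 1 of 15, with 35 and 26. Replicate 1 thus listed about as many peaks as replicate 2 in some of these stretches and more in others. In each of them its excess was smaller in proportion than over the whole lists (28651 against 12585 peaks).

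Regions far from any replicate 2 peak gathered on chromosome 7. In all, 43 unmatched wide peaks (1.26%) had no replicate 2 peak within 1 Mb. A replicate 2 peak that did not overlap lay within 1 Mb of 98.7% of the unmatched and 99.6% of the matched wide peaks. Of the 43, 11 were on chromosome 7, which held 6.06% of all unmatched wide peaks. The 5 farthest were all there. Of these, 3 lay at 13466269 to 13467291, 13506973 to 13507920 and 13563222 to 13564088, between 3.64 and 3.73 Mb from replicate 2. The other two lay at 20329728 to 20330623 and 20354729 to 20355631, at 3.13 and 3.15 Mb. All 5 were near the lower width limit, at 867 to 1023 bp. Between 10 and 25 Mb on this chromosome replicate 2 listed 1 peak, and replicate 1 listed 48, of which 12 were wide and unmatched and 0 wide and matched. Of the 36 narrower replicate 1 peaks there, 35 (97.2%) were unmatched too, so the lack of overlap was not particular to wide peaks.

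Unmatched wide peaks seldom stood beside each other. Grouped by the joining distance between their edges, 87.3% of them had no other unmatched wide peak beside them, 157 groups were pairs and 25 held 3. Another 10 groups held 4 or more. Matched wide peaks stood alone in 79.4% and formed 20 groups of 4 or more.

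The largest group lay on chromosome 11 from 96141917 to 96175886 and held 6 unmatched wide peaks of 1040 to 3182 bp within 34.0 kb. Replicate 1 listed 7 peaks in this stretch, of which 1 was matched, and replicate 2 listed 3. The second, on chromosome 2 from 74515776 to 74531582, held 5 unmatched wide peaks of 942 to 2683 bp within 15.8 kb and no replicate 2 peak, although replicate 2 peaks lay 6.94 to 20.1 kb from its 5 peaks. In both groups unmatched wide peaks made up nearly all replicate 1 peaks of the stretch.

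Groups of 4 followed, and the 3 that began earliest in the list are named. On chromosome 2 from 4462486 to 4492157 the group was mixed, with 2 matched wide peaks among 6 replicate 1 peaks. On chromosome 19 from 47354892 to 47390368 there were 5 replicate 1 peaks and no replicate 2 peak, the nearest being 195 kb away. On chromosome 15 from 102790334 to 102812308 there were 6 replicate 1 peaks, and the nearest replicate 2 peak was 32.5 kb away. Groups of unmatched wide peaks thus occurred both beside replicate 2 peaks and far from them.

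The matched wide peaks show what a counterpart looked like where there was one. Only the replicate 2 peak with the largest overlap was taken as the counterpart, and any further overlapping peak was left out. It had a median width of 753 bp, was 500 bp wide, the smallest width in the lists, in 22.5% (21.2 to 23.9%), and exceeded the replicate 1 peak in width in 10.8%. The widest matched peak, on chromosome 5 from 120117797 to 120122490 (4694 bp), met a replicate 2 peak of 626 bp. The next, on chromosome 8 from 123898430 to 123902956 (4527 bp), met one of 927 bp. For the third (4486 bp, chromosome 8 from 27461089 to 27465574) the counterpart measured 3519 bp. These 3 peaks of similar width thus had counterparts of very different width, and other replicate 2 peaks that may overlap them were not measured.

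Some rows of the replicate 1 list were repeated, and these were nearly all wide peaks. Of 237 peaks listed more than once, 228 were wide. Among unmatched wide peaks 93 were repeated (2.74%, 2.24 to 3.34%), and among matched ones 135 (3.59%, 3.04 to 4.24%), against 0.827% of all replicate 1 peaks. The repeated unmatched peaks had a median width of 1771 bp. Of the 10 widest unmatched regions 3 were repeated.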

How the data were processed

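Notch2 ChIP-seq peaks of E16.5 mouse kidney were taken from the 2 deposited lists, 1 per immunoprecipitation. The authors deposited 3 columns per list (chromosome, start and end in base pairs), with no score or count. Bowtie, SAMtools, HOMER and mm9 are named in the submitters' processing notes, whereas settings, filters and the role of the input are not given in these sources. Positions are counted from 1.

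Exact repeated rows were dropped (242 of 28893 and 480 of 13065). A peak was unmatched if no replicate 2 peak overlapped it by 1 bp or more, and a distance is the number of bases between edges. Peaks were joined, or counted as crowded, within 12.5 kb. A list place is the order after repeats were dropped. The planned comparisons with gene starts, gene lists and sequence motifs need an mm9 annotation or sequence and were not run. The regions and all measures were chosen with earlier results of these data known. The windows, the comparison with narrower peaks and the classes by place were chosen after the values were seen. Regions named are the 10 widest, the 10 earliest in the list, the 5 nearest to and 5 farthest from replicate 2, the 5 largest groups (equal groups by earliest place) and the 3 widest matched peaks. Windows named are the 8 with most unmatched wide peaks, the 5 with the highest shares and the 6 with the lowest. The smallest overlaps and chromosome 7 from 10 to 25 Mb were picked after their values were seen.

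Overlaps and distances, tested on simulated data, equalled those of bedtools in 10 of 10 lists. Software was bedtools 2.31.1, statsmodels 0.14.6, scipy 1.17.1, pandas 2.3.3, numpy 2.4.6, matplotlib 3.10.9 and Python 3.11.15.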

Additional observations from a re-analysis of the deposited data

How the results depend on the processing

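The differences between unmatched and matched peaks or between chromosomes 11 and 16, and the rho over windows, kept their direction in all 33 alternatives run for them. Chromosomes 11 and 16 were picked as the extremes of the main result, and the alternatives reuse many of the same peaks. The kept direction is therefore partly built in. Of 43 alternatives in all, 31 values stayed within the counting interval of the main value (counts of peaks within 1.5 times, the rho over windows within 0.1). The number of unmatched wide peaks was 1991 from 1000 bp and 6102 from 700 bp, fewer and more by construction. With overlap of 50% of both peaks required, the difference between unmatched and matched peaks in the first 25% of the list was -35.5 percentage points, the share of unmatched peaks within 10 kb of replicate 2 was 37.5%, since partial overlaps then count, and the difference in crowding within the joining distance was -4.84 points. Within classes by place the latter was -5.14, against -7.53. The difference in list place was -41.4 points from 1000 bp and -17.1 for the first 50% of the list. Within 25 kb of replicate 2 lay 35.0% of the unmatched peaks. The difference in replicate 2 peaks nearby was -2.69 per peak at 250 kb, and at 100 kb it was -1.12 within classes by place and -1.16 without clusters, against -1.40. Apart from what construction gives, the cause of these shifts was not tested. Alternatives within widths, by place, without clusters and for windows were chosen after the data were seen. Those for gene starts and motifs were not run. No paired analysis was possible because only the Notch2 group came with lists, and without either replicate there is nothing to overlap. Read depth is unknown, so a region absent from the replicate 2 list is not shown to lack Notch2 there.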
